A study of Mus musculus with 4 samples.

Results

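Transcripts of the proteasome were examined in mouse oocytes 24 h after γ-irradiation. The genes were chosen by name alone, as every gene whose symbol begins with Psma, Psmb, Psmc, Psmd, Psme, Psmf or Psmg followed by a digit, which gave 51 of the 17374 genes of the expression table. Of these, 49 encode subunits, activators, an inhibitor or assembly chaperones of the proteasome, and 45 of the 51 had enough reads to be tested. The remaining pair, Psmc3ip and Psme3ip1, match the rule by spelling, and their products are a meiotic recombination cofactor and a partner of an activator rather than parts of the particle.

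RNA-seq had been performed on 4 libraries of pooled oocytes, 2 control and 2 irradiated. All oocytes were at the germinal vesicle (GV) stage, meaning arrested in meiotic prophase with an intact nucleus, and came from females of a C57/Bl6/DBA2J F1 hybrid background on postnatal day 16, when most oocytes are transcriptionally active with the non-surrounded nucleolus (NSN) configuration. Cumulus cells and the zona pellucida were removed, and milrinone, which blocks meiotic resumption, was present in the culture of both groups. Irradiated oocytes received 5 Gy from a Cesium-137 source in vitro, and control oocytes were not irradiated. The comparison asks which transcripts differ after acute genotoxic stress in isolated oocytes, outside the follicle and without their somatic partners. Messenger RNA was selected by its poly(A) tail, so the values count polyadenylated transcripts.

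The proteasome degrades proteins that carry a ubiquitin tag. Its 20S core is a barrel of stacked rings, with outer alpha rings that gate the entrance and inner beta rings that hold the proteolytic sites. The 19S cap recognizes tagged proteins, unfolds them with a ring of ATPases and feeds them into the core. Lymphoid cells and cells exposed to interferon exchange the catalytic beta subunits for inducible ones, and germ cells of the testis have an alternative alpha subunit. In oocytes the proteasome removes cyclin B and securin at meiotic divisions and helps clear maternal proteins after fertilization.

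Estimated counts summed to between 33349466 and 37232818 per library. The second irradiated library stood apart. Its trimmed mean of M values (TMM) scaling factor was 1.19, against 0.923 to 0.9749 in the other 3. The median absolute log2 difference over all tested genes was 0.128 between the 2 controls and 0.293 between the 2 irradiated libraries. All 12 listed oocyte markers were detected, and their summed level lay between 30119 and 32190 TPM, a level corrected for transcript length and library size. Of 12 granulosa and cumulus markers, 9 were in the table, and they summed to 337 to 393 TPM, of which Serpine2 alone gave 320 to 376. The oocyte markers had a median log2 fold change of -0.24. In normalized count 5 of the 12 lay below both controls in both irradiated libraries and 1 lay above. Over all tested genes these shares were 19.9% and 22.1%. In the second irradiated library Zp2, at 1937 TPM against 4290 and 4452 in the controls, was low and Nobox, at 1215 TPM against 398 and 440, was high, so that the steady sum covers opposite differences beside those of the ring genes, and their part in the values below was not tested. The summed leukocyte markers lay between 1.9 and 4.39 TPM and those of theca and stroma between 0.42 and 0.64 TPM.

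Short promoter sequences are shown first because genes of the core and of the cap are known to be raised together by the transcription factor NRF1, and in oxidative stress some by NRF2, through antioxidant response elements. The core of that element was searched on both strands, as the letters TGACNNNGC, in the 250 bases before each RefSeq transcript start listed for a gene (build GRCm38.p6). Of the 47 member windows, 12 belonged to a start inside the annotated span of the gene. It was present in 5 of the 43 members with a promoter entry (11.6%), beside 11.5% of 27025 promoters of all genes and 13.7% of those of tested genes. The matches are printed from 5′ to 3′ on the strand of the gene, with the motif in capitals.
Psmb5, chr14:54618024-54618052: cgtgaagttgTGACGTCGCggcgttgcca
Psmb6, chr11:70525338-70525356: ctaaagagagTGACGGAGC
Psmc6, chr14:45329587-45329615: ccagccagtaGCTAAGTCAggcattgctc
Psmd9, chr5:123228149-123228177: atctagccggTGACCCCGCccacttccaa
Psmd12, chr11:107479278-107479299: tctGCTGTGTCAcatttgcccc
Psmc6 and Psmd12 carried the motif on the opposite strand. The first capital lay 47 bases before the listed start of Psmb5, 9 before that of Psmb6, 227 before that of Psmc6, 31 before that of Psmd9 and 247 before that of Psmd12. The listed start of Psmb6 is 33 bases inside its gene span, so its printed site is also within that span. None of the 7 alpha ring promoters held these letters.

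The CCAAT box, a common promoter element bound by nuclear factor Y, was present in 16 of the 43 member promoters (37.2%), beside 37.5% of all promoters and 41.1% of those of tested genes. In the alpha ring it was found in 5 of 7. These sites are shown because the alpha ring held the members with the most negative fold changes.
Psma1, chr7:114276226-114276254: ctttctctgcgcATTGGctttcccacccc
Psma1, chr7:114276198-114276226: cggagcttcctgCCAATcccacgttctca
Psma2, chr13:14613176-14613204: ggtgactctcctCCAATcagagcaaagaa
Psma3, chr12:70974472-70974500: accttagctcttCCAATaccagtttcagt
Psma6, chr12:55384074-55384102: gggcagaccattATTGGggatcaagctcg
Psma6, chr12:55384181-55384209: gaccactaggtgCCAATggaattcctgag
Psma7, chr2:180042644-180042672: gcctgcctgtcgCCAATgcgcgctcgagt
The listed start of Psma3 is 5340 bases inside its gene span, and its printed site lies within the gene as well. A match of letters is a description of the sequence and was not tested for binding.

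The core genes were among the more abundant transcripts of the oocyte. Psma7, an alpha ring subunit, had the highest level of all members, at 2318 and 2312 TPM in the controls and 2216 and 1809 TPM in the irradiated libraries. In the controls it ranked 73rd among all genes. Psmb2, a beta ring subunit without proteolytic activity, followed at 1646 and 1621 TPM in the controls and 1549 and 1442 TPM after irradiation. Psma2 of the alpha ring came next, at 1335 and 1287 TPM against 1258 and 828 TPM. In each of these 3 genes both irradiated libraries lay below both controls on the TPM scale, with the second irradiated library the lowest.

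**Figure D1:**
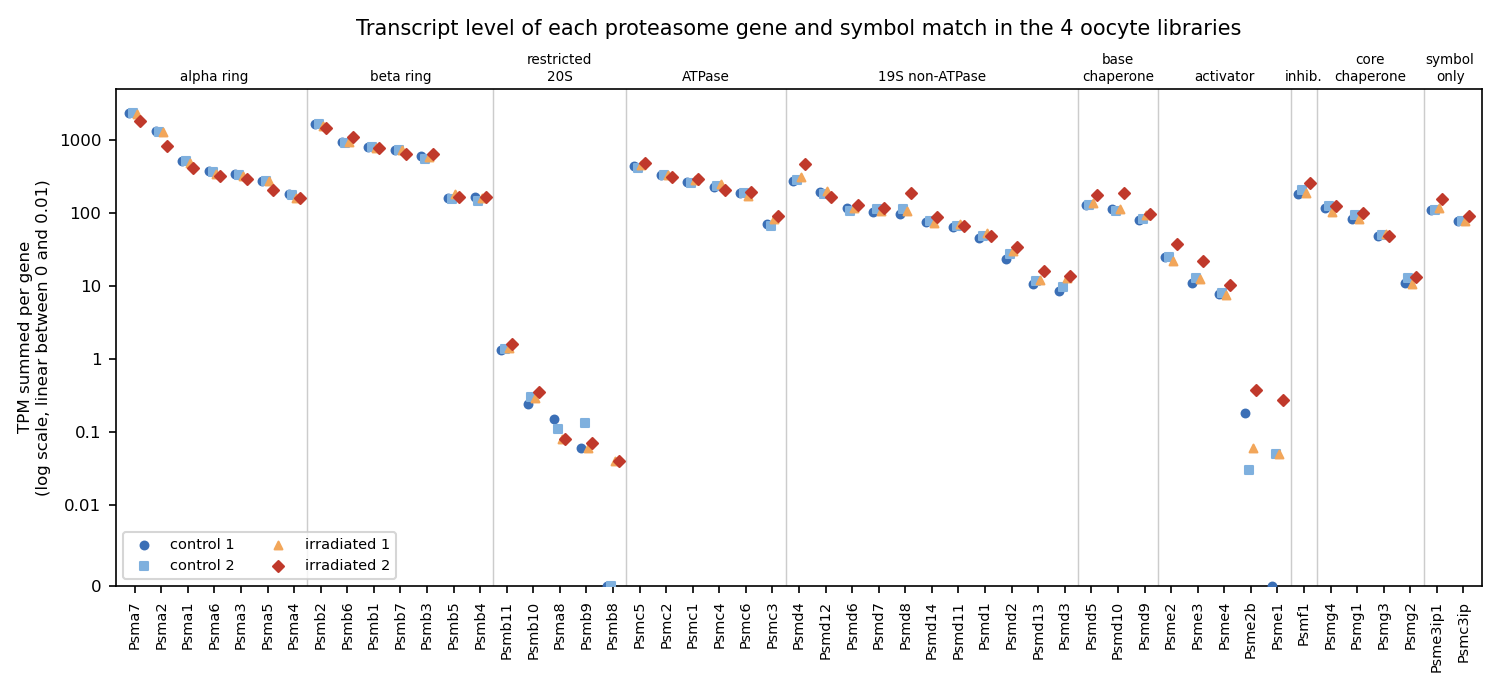
TPM summed per gene (vertical axis, log scale, linear between 0 and 0.01) for the 51 genes, grouped by role and ordered within a role by the control mean, with one point for each of the 4 libraries. The 14 subunits of the alpha and beta rings lay between 145 and 2318 TPM in the controls, while the inducible and tissue-restricted subunits lay at or below 1.57 TPM in every library.

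Subunits of the same ring, which occur in equal numbers in the particle, did not have equal transcript levels. The alpha ring spanned 13.1-fold in mean control TPM from Psma7 to Psma4, and the beta ring 10.6-fold from Psmb2 to Psmb4. The 6 ATPases of the cap spanned 6.31-fold from Psmc5, at 441 and 407 TPM in the controls, to Psmc3, at 69.5 and 64.98 TPM. The 11 non-ATPase subunits of the cap within the naming rule spanned 30.6-fold, from the ubiquitin receptor Psmd4 to the scaffold subunit Psmd3. Outside the rule, the cap subunit Sem1 lay above that span, at 710 and 736 TPM in the controls. Adrm1, also of the cap, lay within it, at 89.8 and 111 TPM. Along the order of all 51 genes, both control values lay above both of the next gene in 33 of the 50 neighbouring pairs, and 17 pairs could not be separated by 2 libraries. Psmf1, Psmc6, Psmd12 and Psma4 formed one such unseparated stretch, with control values between 173 and 204 TPM.

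The 3 catalytic beta subunits of the constitutive core were all expressed. Psmb6, with caspase-like activity, lay at 932 and 891 TPM in the controls and 917 and 1091 TPM in the irradiated libraries. Psmb7, with trypsin-like activity, lay at 733 and 728 TPM and then at 729 and 631 TPM. Psmb5, with chymotrypsin-like activity, lay lower, at 160 and 154 TPM in the controls and 180 and 163 TPM after irradiation. The control level of Psmb5 thus stood well under those of the other two active subunits, beyond the difference between libraries.

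Their inducible counterparts were near 0. Psmb8, which replaces Psmb5 in the immunoproteasome, had estimated counts of 0 and 0 in the controls and 1 and 1 after irradiation. Psmb9 had estimated counts of 1 and 2 in the controls and 1 and 1 in the irradiated libraries, and Psmb10 had 7 and 8 and then 8 and 9. A count of 0 allows a true level of up to 3 counts, so only Psmb10 stood above that floor. Psmb10 made up at most 0.0554% of the TPM of Psmb7 and Psmb10 together in any library, and Psmb9 at most 0.0146% of that of Psmb6 and Psmb9. No exchange of catalytic subunits was detectable after irradiation at this depth.

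The germ cell and thymus forms were rare as well. Psma8, the alternative alpha subunit of spermatocytes, had estimated counts of 6 and 4 in the controls and 3 and 3 after irradiation, against 48456 and 43414, then 43091 and 32910, for Psma7. Psmb11, the beta subunit of thymic cortical epithelium, had estimated counts of 148 and 134 in the controls and 146 and 150 in the irradiated libraries, a level of 1.33 to 1.57 TPM. It was the lowest of the tested members, and its groups overlapped in normalized count, though in TPM both irradiated values were the higher ones. Its count was not a whole number although the table lists a single transcript, as happens where an estimate divides reads between transcripts.

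After irradiation no member changed beyond the limits that the study's methods set, which ask for more than 2 log2 units in either direction and for an adjusted p under 0.05. In edgeR (quasi-likelihood F test, Benjamini-Hochberg adjustment) 0 of 45 members met them, and across all 12569 tested genes 0.00796%, which is 1 gene, did. The smallest adjusted p of a member in that edgeR fit was 0.708. None had an unadjusted p under 0.05, while 4.63% of all tested genes passed that limit with a higher value in irradiated oocytes and 1.29% with a lower one. DESeq2, limma-voom and edgeR's exact test also called 0 members, against 4, 0 and 10 of all genes, and placed 0 under an unadjusted 0.05, against 436, 629 and 790 of all genes. With 2 libraries per group these p-values measure the spread between pools of oocytes, and the 95% intervals of single members below are wide.

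The fitted values were nonetheless unevenly distributed among the roles. Over the 45 tested members 34 had a negative and 11 a positive log2 fold change, with a median of -0.11. The median over all tested genes was 0.01, and 48.6% of all genes were negative. The top 10% of tested genes by control TPM held 30 of these members. There the median was -0.178 over all genes and -0.195 over the members. The split between negative and positive values depends on the scaling. It was 21 of 45 negative without the TMM factors and 16 of 45 on the log2(TPM + 1) scale. The median of all genes was then 0.17 and 0.14, and 34 and 31 of the 45 lay below it, against 34 in the main analysis. On the log2(TPM + 1) scale with genes of few reads kept, 22 lay below that median, which was 0.08. The split also depends on the second irradiated library. Without that library 23 of 45 were negative, and the median was -0.007 over the members and 0.003 over all genes. Both irradiated libraries lay below both controls in normalized count for 15 of 45 members, a separation seen in 19.9% of all tested genes. Both lay above in 4 members, against 22.1% of all genes. Normalized counts are relative to the library, so they show neither the number of intact oocytes in a pool nor the total RNA per cell.

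**Figure D2:**
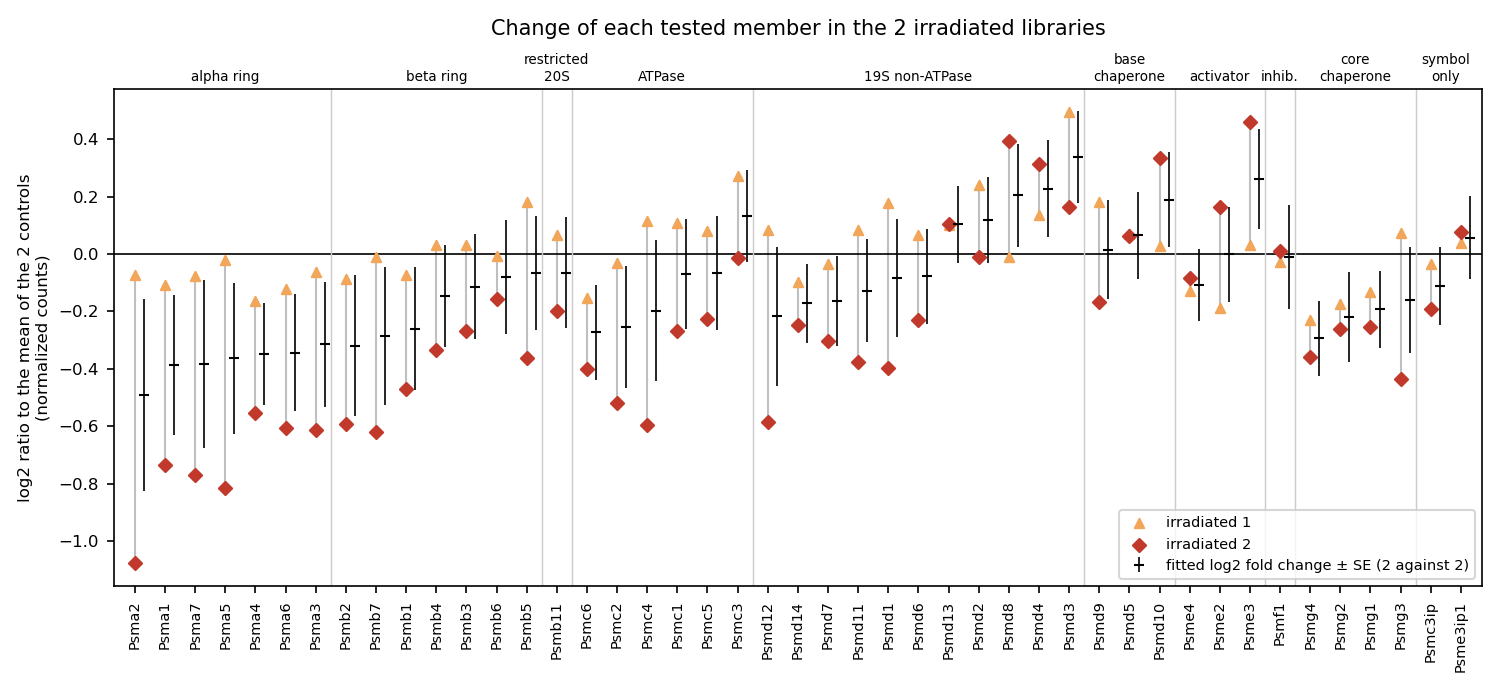
Log2 ratio of normalized counts in each irradiated library to the mean of the 2 controls (vertical axis) for the 45 tested members grouped by role, with the fitted log2 fold change and its standard error beside them (2 libraries against 2). The second irradiated library lay below the control mean in all 14 ring subunits, with ratios from -1.08 to -0.16, and the first lay closer to 0.

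All 7 alpha ring subunits had negative fold changes, from -0.49 to -0.31, with a median of -0.36. The separation between groups held for 6 of the 7, with Psma5 the exception. The largest difference was that of Psma2 (chr13:14613242-14625673), whose normalized counts were 28261 and 25891 in the controls and 25707 and 12810 in the irradiated libraries. Its log2 fold change was -0.49 ± 0.33 (SE, 2 libraries against 2), with a 95% interval from -1.28 to 0.30 (edgeR adjusted p = 0.714). The log2 ratio to the control mean was -0.07 in the first irradiated library and -1.08 in the second, so the fitted value rests on the second library.

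Psma1 (chr7) and Psma7 (chr2:180036367-180042464) showed the same arrangement. Psma1 had normalized counts of 15179 and 14636 in the controls and 13840 and 8962 after irradiation, with a log2 fold change of -0.39 ± 0.24 (SE, edgeR adjusted p = 0.713) and a 95% interval from -0.96 to 0.19. Psma7 had 49452 and 46852 in the controls and 45631 and 28218 after irradiation, with a log2 fold change of -0.38 ± 0.29 (SE, edgeR adjusted p = 0.730) and an interval from -1.08 to 0.31. In both genes the second irradiated library was the lowest of the 4 by a wide margin. Over the whole ring the median log2 ratio to the control mean was -0.08 in the first irradiated library and -0.73 in the second. The median gap between the irradiated libraries was 0.627, against 0.0956 between the controls.

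The alpha ring kept its negative sign under every way of scaling that was tried. Without the TMM factors its fold changes ran from -0.39 to -0.18, and on the log2(TPM + 1) scale from -0.36 to -0.12, and in each case all 7 lay below the median of all genes. With the second irradiated library left out, they ran from -0.16 to -0.02, still all negative, with a median of -0.08. The median gap between the 2 controls over these genes was 0.0956, so differences of this size also occurred between controls. In the first irradiated library the top 10% of all tested genes by control TPM had a median log2 ratio of -0.04. By relative length, taken as counts per TPM, the shortest 10% of genes had -0.06 there and held 4 of the alpha ring genes. The next 10% had 0.01 and held the other 3. The part of level or length in the ring's values was not tested.

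The beta ring had smaller differences. All 7 subunits were negative in the main analysis, from -0.32 for Psmb2 to -0.07 for Psmb5, with a median of -0.15. Only Psmb1 and Psmb2 had both irradiated libraries below both controls. On the log2(TPM + 1) scale 3 of the 7 remained negative and the other 4 were positive. All 7 lay below the median of all genes on that scale, 0.14, as they did without the TMM factors, where it was 0.17. With genes of few reads kept, 4 of the 7 lay below it on the log2(TPM + 1) scale. Without the second irradiated library 4 of the 7 were negative, with a range from -0.09 to 0.18. The sign of the beta ring as a whole thus depends on the scaling and on that library. The catalytic subunits Psmb5, Psmb6 and Psmb7 overlapped between groups, at 3060 and 2797 against 3320 and 2278 normalized counts for Psmb5.

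Ratios between parts of the particle within a library do not depend on the scaling between libraries. Summed over the ring, alpha TPM were 5319 and 5257 in the controls and 5050 and 4029 after irradiation. The beta ring summed to 5023 and 4891 in the controls and 4888 in each irradiated library. The alpha to beta ratio was therefore 1.06 and 1.07 in the controls, 1.03 in the first irradiated library and 0.824 in the second. The irradiated values lay below both controls, with the second library the further one. These sums are led by Psma7 and Psma2. The ratio of the ring medians was 0.504 in each control and 0.469 and 0.511 after irradiation, so on that measure the second irradiated library was not below the controls.

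In TPM, the 19S cap, taken as its ATPases and non-ATPase subunits within the naming rule, had a higher sum in both irradiated libraries than in either control. This sum and the ratios below leave out the cap subunits Sem1 and Adrm1. Sem1 had 710 and 736 TPM in the controls and 682 and 600 TPM after irradiation. Adrm1 had 89.8 and 111 TPM against 118 and 234 TPM. Cap subunits summed to 2518 and 2505 TPM in the controls and 2650 and 2875 TPM in the irradiated libraries. In normalized counts the second irradiated library lay below the control mean in 6 of 6 ATPases and 7 of 11 non-ATPase subunits. The first did so in 2 of 6 and 3 of 11. The direction of the cap in the second library thus depends on the scaling. The core to cap ratio was 4.11 and 4.05 in the controls, 3.75 in the first irradiated library and 3.10 in the second. Its mean was 4.08 ± 0.0396 in controls and 3.43 ± 0.458 after irradiation (SD, n = 2 each), and the first irradiated library alone differed from the control mean by -0.330, which is more than the gap between the controls. With medians over the subunits in place of sums the ratio was 5.34 and 4.78 in the controls and 5.04 and 4.14 after irradiation, where the first irradiated library lay between the controls. An exact two-sided permutation test gave p = 0.333 for the core to cap and alpha to beta ratios of the sums, the smallest value that 2 against 2 libraries allow. The whole set made up 1.38% and 1.37% of all TPM in the controls and 1.36% and 1.31% after irradiation.

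**Figure D3:**
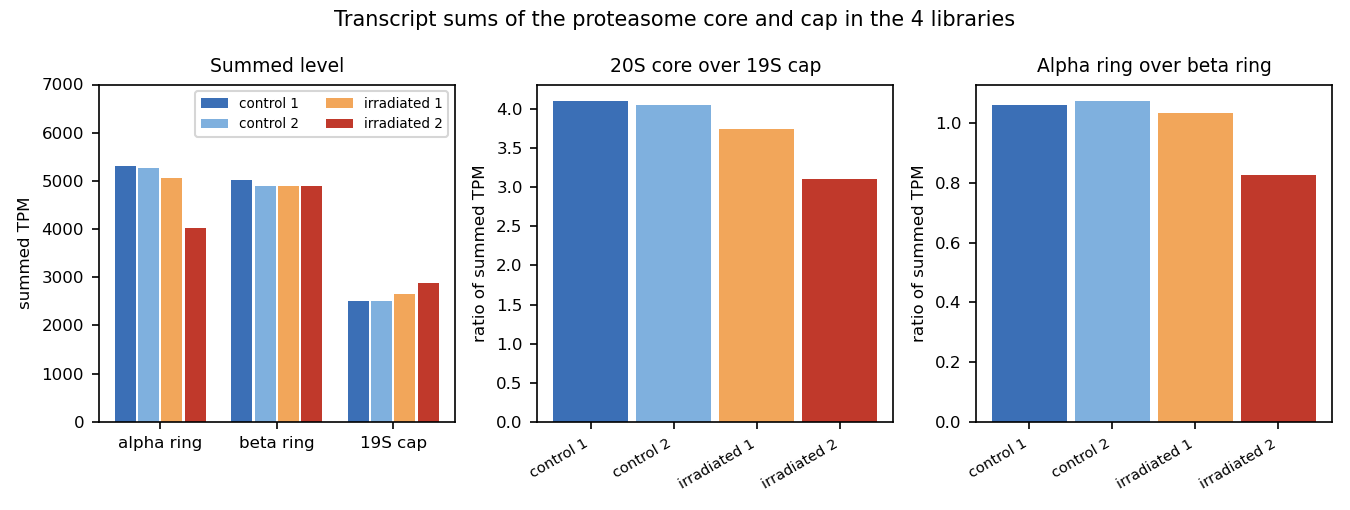
Summed TPM of the alpha ring, the beta ring and the 19S cap (left), and the ratios of core to cap (middle) and of alpha to beta ring (right), one bar for each of the 4 libraries. The cap holds the ATPases and non-ATPase subunits within the naming rule, without Sem1 and Adrm1. The core to cap ratio was 4.11 and 4.05 in the controls and 3.75 and 3.10 in the irradiated libraries.

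Within the cap, the ATPases that unfold substrates had fold changes from -0.27 for Psmc6 to 0.13 for Psmc3, with a median of -0.13. Psmc6 alone had irradiated libraries that did not overlap the controls, at 7193 and 6812 against 6291 and 5304 normalized counts. Of the 11 non-ATPase subunits, 5 were positive and 6 negative, and on the log2(TPM + 1) scale 1 was negative. On either scale 6 lay below the median of all genes. Psmd14, the deubiquitinase that removes the ubiquitin tag before entry, had 2866 and 2751 normalized counts in the controls and 2625 and 2363 after irradiation. On the TPM scale its libraries overlapped, at 75.8 and 77.1 against 72.4 and 86.1 TPM.

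The highest fold changes among all members were those of Psmd3, Psme3 and Psmd4. Psmd3 (chr11:98682554-98695978), a scaffold of the lid, had 460 and 496 normalized counts in the controls and 675 and 536 after irradiation. Its log2 fold change was 0.34 ± 0.16 (SE, edgeR adjusted p = 0.708), with a 95% interval from -0.04 to 0.72. Here the first irradiated library lay further from the controls, whereas in the alpha ring the second did. Psmd3 was among the less abundant members, at 8.4 and 9.62 TPM in the controls and 12.9 and 13.5 TPM in the irradiated libraries.

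Psmd4 (chr3:95032688-95042614), a receptor for ubiquitin chains, had 8734 and 8498 normalized counts in the controls and 9476 and 10709 after irradiation. Its log2 fold change was 0.23 ± 0.17 (SE, edgeR adjusted p = 0.727), with an interval from -0.18 to 0.63. The groups did not overlap, in TPM as well, at 272 and 280 in the controls and 307 and 458 after irradiation. Psmd13, another lid subunit, also had irradiated libraries above both controls, at 402 and 419 against 441 and 442 normalized counts.

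The activators replace the cap on the core. Psme3, the nuclear activator PA28γ, had 751 and 837 normalized counts in the controls and 810 and 1092 after irradiation, with a log2 fold change of 0.26 ± 0.17 (SE, edgeR adjusted p = 0.714) and an interval from -0.15 to 0.68. The first irradiated library lay between the controls, so the groups overlapped. Psme2, part of the interferon-inducible activator, had 472 and 436 against 398 and 508 normalized counts and also overlapped. Its partner Psme1 had estimated counts of 0 and 1 in the controls and 1 and 5 after irradiation, and Psme2b, a close copy of Psme2 whose reads cannot be fully separated from it, stayed at or under 7.7.

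Psme4 encodes PA200, a nuclear activator linked to DNA repair and to histone degradation. Its gene total had 1320 and 1307 normalized counts in the controls and 1200 and 1239 after irradiation, a small separation without overlap. Its transcripts were divided differently. NM_134013.3 had estimated counts of 874 and 910 in the controls and 645 and 593 after irradiation, and the predicted transcript XM_030245449.1 had 386 and 290 against 471 and 817. Within the gene the first went from 67.5% and 75.1% to 56.9% and 41.1%, and the second from 29.8% and 23.9% to 41.6% and 56.6%. For both transcripts the groups did not overlap, and the second irradiated library was again the more distant.

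These were the only 2 of 75 tested member transcripts at an unadjusted p under 0.05 in edgeR, beside 4.9% of all 26645 tested transcripts. NM_134013.3 had a log2 fold change of -0.64 ± 0.19 (SE, edgeR adjusted p = 0.825) and XM_030245449.1 one of 0.78 ± 0.26 (SE, edgeR adjusted p = 0.957), so neither passed the adjustment. Past both limits edgeR called 0 of these 75, and 0.0% of all transcripts. In the test of shares within a gene, edgeR's diffSpliceDGE with Simes' method called 0 of 19 testable members, beside 0.253% of all 6323 genes, and its unadjusted p for Psme4 was 0.188. The gene-level F test of the same tool gave an unadjusted p of 0.0132 with an adjusted p of 0.263, and limma's diffSplice gave 0.000554 and 0.419. Psme4 thus had the smallest share p of the members under each of these 3 methods, and none called it after adjustment. Estimated counts of overlapping transcripts depend on how shared reads are assigned, which adds an error that the p-values do not hold.

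**Figure D4:**
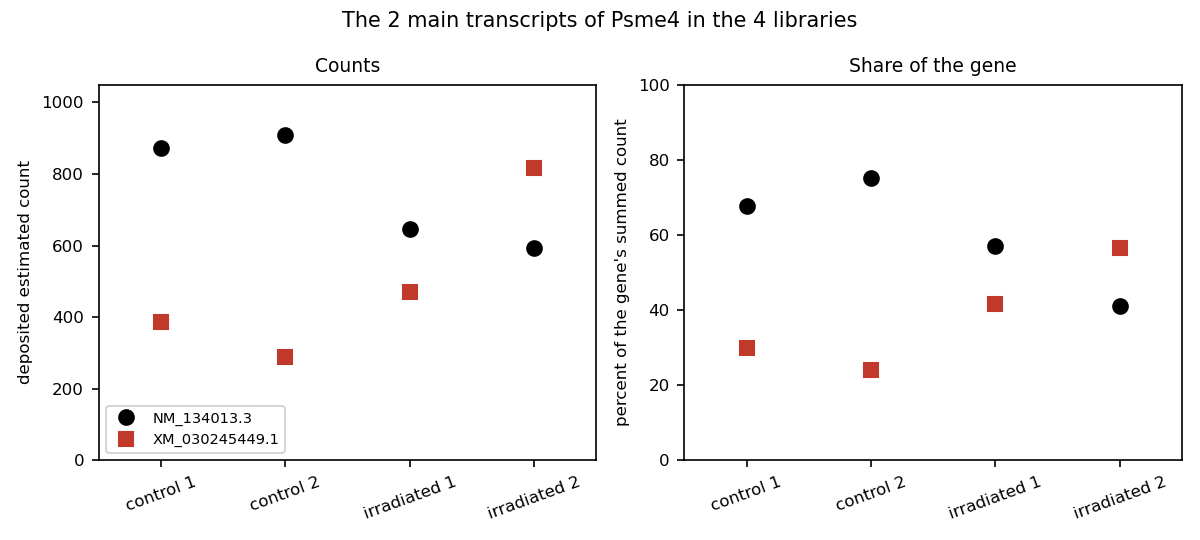
Deposited estimated counts (left) and percent of the gene's summed count (right) for the 2 main transcripts of Psme4 in each of the 4 libraries. NM_134013.3 was the larger in both controls and in the first irradiated library, and XM_030245449.1 was the larger in the second, with 56.6% of the gene.

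The other members with several transcripts mostly kept 1 dominant form. Of the 51 genes, 29 had a single transcript in the table and 22 had several. Psma7 came from NM_011969.2 in at least 99.975% of its counts. Psmd4 was mostly made of NM_008951.2 and NM_001282017.1, with shares of 59.5% to 61.3% and 38.0% to 40.5% over the 4 libraries. After Psme4, the smallest unadjusted Simes p of the shares were 0.850 for Psmf1, 0.891 for Psmd10 and 0.906 for Psmd4.

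The inhibitor and the chaperones complete the set. Psmf1, an inhibitor of the core known as PI31, was level at 14608 and 15644 normalized counts in the controls and 14819 and 15216 after irradiation. The 4 chaperones that assemble the alpha ring, Psmg1 to Psmg4, all had negative fold changes, from -0.29 to -0.16. Psmg4 had 1140 and 1190 normalized counts against 994 and 907, with an unadjusted p of 0.0588 in the edgeR fit, the smallest of any member. Psmg1 had 1978 and 2124 against 1871 and 1718, and Psmg2 had 278 and 303 against 257 and 242, both without overlap. Psmg3 had 894 and 871 against 928 and 653 and overlapped.

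In TPM the chaperones of the alpha ring did not separate the groups. Their sum was 258 and 281 in the controls and 246 and 283 after irradiation, and on the log2(TPM + 1) scale 2 of the 4 were negative. All 4 lay below the median of all genes on that scale, 0.14. The 3 chaperones of the base of the cap, Psmd5, Psmd9 and Psmd10, had fold changes from 0.02 to 0.19, and Psmd10, also known as gankyrin, had 3885 and 3537 normalized counts in the controls and 3781 and 4679 after irradiation. Psmc3ip and Psme3ip1 overlapped between groups in normalized count.

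The size of the difference in the second irradiated library went with the level of the gene. Of the 45 tested members, 30 were in the top 10% of all tested genes by control TPM, above 84.5 TPM, and all 7 alpha ring genes were there. In that 10% the median log2 ratio of all genes to the control mean was -0.04 in the first irradiated library and -0.34 in the second, and in the lowest 10% it was 0.12 and 0.19. Spearman's correlation of the log2 ratio in the second irradiated library with control TPM was -0.59 over the members and -0.25 over all tested genes, as a description over genes that share libraries and depth. For the first irradiated library these were -0.22 and -0.10. The alpha ring median of -0.73 in the second library lay under the -0.34 of the top 10%, and the beta ring median of -0.36 lay near it. The part of this general trend in the values of the alpha ring was not tested.

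**Figure D5:**
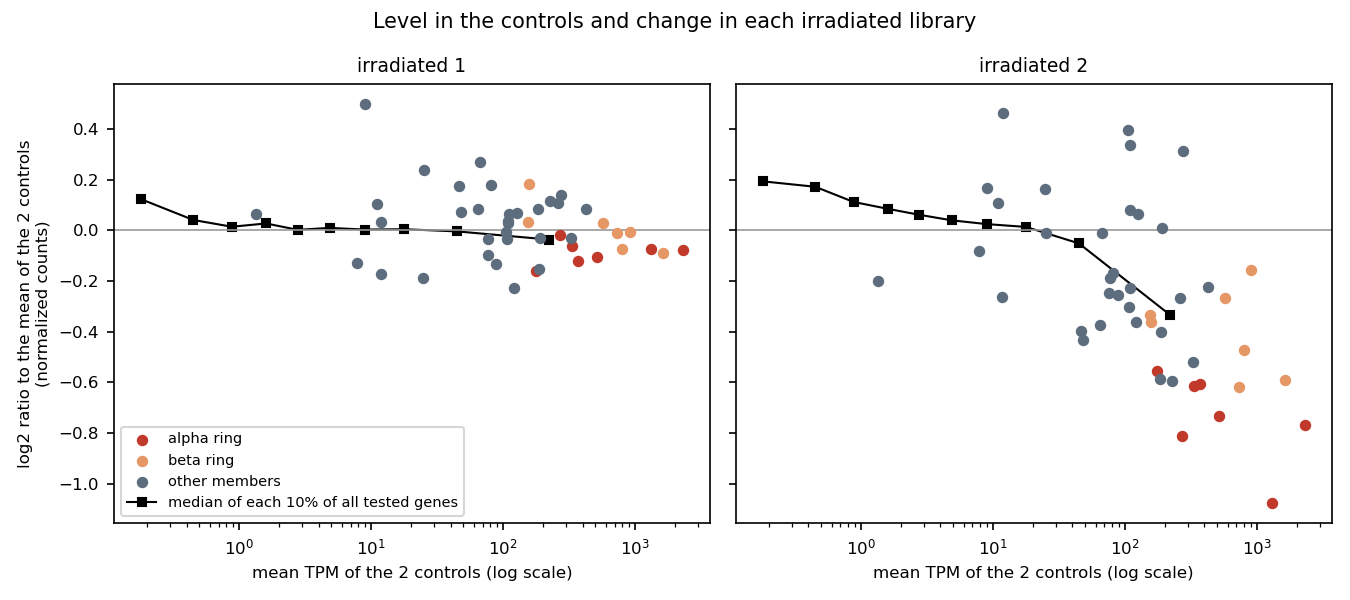
Log2 ratio of normalized counts to the control mean (vertical axis) against mean control TPM (horizontal axis, log scale) for the 45 tested members in the first (left) and second (right) irradiated library, with the median of each successive 10% of all 12569 tested genes as squares. The most abundant 10% had a median of -0.04 on the left and -0.34 on the right, and the 7 alpha ring genes lay at or under -0.55 on the right.

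Leaving out a library showed how far the results depended on it. Without the first irradiated library, 26 members were lower and 4 higher at an adjusted edgeR p under 0.05, a limit that 34.3% of all tested genes then passed, and the lone irradiated library was assumed to vary as the controls did. Without the second, Psmd3 alone passed, beside 0.791% of all genes. Without either control no member did.

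Other genes of the ubiquitin pathway were taken from a list of 46, of which 44 were in the table and tested. Their median log2 fold change was -0.03. The edgeR fit gave 3 with a higher and 2 with a lower value at an unadjusted p under 0.05, beside 4.63% and 1.29% of all tested genes, and 0 after adjustment. Of the 44, 5 had irradiated libraries above both controls and 13 below both, beside 22.1% and 19.9% of all genes.

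Among 7 proteasome factors outside the naming rule, Adrm1, the ubiquitin receptor that sits in the cap beside Psmd4, had 3138 and 3652 normalized counts in the controls and 3934 and 5923 after irradiation, with a log2 fold change of 0.54 ± 0.22 (SE, edgeR adjusted p = 0.708). Sem1, a small lid subunit, had 5997 and 6032 against 5685 and 3806. Pomp, which helps the beta ring mature, overlapped at 5373 and 4850 against 4966 and 4125.

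The regulators of proteasome genes gave no call. Nfe2l1, which encodes NRF1, lay at 3.14 and 3.21 TPM in the controls and 3.29 and 4.08 TPM after irradiation, but its normalized counts overlapped, at 390 and 376 against 390 and 336. Nfe2l2, which encodes NRF2, lay at 7.32 and 8.92 TPM against 7.5 and 13.7 TPM and overlapped. Of the 6 regulators, 3 had both irradiated libraries below both controls in normalized count and 0 had both above, beside 19.9% and 22.1% of all tested genes. These 3 were Nfe2l3, Ddi2 and Keap1, with log2 fold changes of -0.39, -0.22 and -0.42. Nfe2l3 and Keap1 lay at or under 0.83 TPM in every library. None of the 6 regulators had an unadjusted p under 0.05. Of the 4 ubiquitin genes, Ubb was the most abundant, at 22804 and 23028 TPM in the controls and 23372 and 30204 TPM after irradiation.

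Among the ligases and enzymes that add ubiquitin, Fzr1 and Anapc2, an activator and a subunit of the anaphase-promoting complex, had log2 fold changes of 0.44 and 0.42, while Cdc27 of the same complex had -0.52. Uba6, an enzyme that activates ubiquitin, had -0.37. All 4 had an unadjusted p under 0.05, and the edgeR adjusted p was 0.708 for each. In TPM, Fzr1 had 17.8 and 20.02 in the controls and 23.4 and 37.6 after irradiation, Cdc27 had 48.1 and 50.5 against 40.6 and 38.4, and Uba6 overlapped at 4.23 and 4.93 against 3.75 and 4.56.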

How the data were processed

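Expression was analysed in 4 libraries, grouped by the titles given at deposit as control or γ-irradiated. The authors deposited an estimated count and a TPM value for each RefSeq transcript and library. Per the study's methods, paired-end reads of 100 bases were aligned to GRCm38 with Bowtie2, and the submitters' notes also name HISAT2 and RSEM. Averages, FPKM values and the authors' own comparison (10 columns) were not used.

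Counts and TPM were summed per gene, with symbols from RefSeq (17323 of 17374 gene IDs). Rounded counts were fitted with edgeR 4.0.16 (R 4.3.3) by the quasi-likelihood test after filterByExpr (minimum count 10) and TMM scaling, with Benjamini-Hochberg adjustment over all features. A call needed more than 2 log2 units in either direction and an adjusted p under 0.05. The standard error is the fold change divided by the square root of F, and intervals are at 95%. Normalized counts are counts divided by the TMM library size, rescaled to the geometric mean library, and log2 ratios add 0.5 to them. Transcripts were fitted likewise, and shares with diffSpliceDGE. DESeq2 1.42.0 and limma 3.58.1 were alternatives, and TPM was tested by limma as log2(TPM + 1). Scripts were tested on simulated data. With a planted log2 change of 3, the gene fit recovered 100% of the altered genes and the transcript fit 71.5% of the altered transcripts. The share method recovered 32.0% of the altered genes, so a changed share could go uncalled. At a log2 change of 1 the gene fit recovered 74%.

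Values per library were given for members with an unadjusted p under 0.05, the 3 highest and 3 lowest fold changes and levels, and a list of subunits by role. Other pathway genes were named where they had an unadjusted p under 0.05 or regulate or join the proteasome, and Psmb1, Psmb2, Psmc6, Psmd13 and Psmd10 were added to them once their values were known. The members, lists and markers were chosen with earlier results of these data known. Motif windows end before each listed transcript start, which for some genes lies inside the gene.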

Additional observations from a re-analysis of the deposited data

How the results depend on the processing

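No member was called under any of the 16 alternatives for gene totals, nor any member transcript under 10 or share under 3. Among the 6 members, 5 pathway genes and 2 transcripts given with a standard error or an unadjusted p under 0.05, no fold change changed sign. Of the ends of ranges, Psmb5 became positive, at 0.0659 with library size alone, 0.123 with each TPM fit, and from -0.374 to 0.181 without 1 library. Psmg3 became positive, at 0.0319 with log2(TPM + 1), filtered or not, 0.0324 with log2(TPM + 0.1), and from -0.447 to 0.0725 without 1 library. Without 1 library Psmc3 ran from -0.0271 to 0.268. Psmd9 became -0.000469 with DESeq2 and -0.0442 with the length trend removed, and ran from -0.181 to 0.180 without 1 library. The number of members with an unadjusted p under 0.05, which was 0, became 1 with library size alone (586 of all genes), log2(TPM + 1) (372), log2(TPM + 0.1) (409) or known transcripts only (472), and 2 with log2(TPM + 1) unfiltered (581), against 744 of all genes in the main analysis. Leaving out 1 library gave 0 to 32 members beside 319 to 5395 of all genes, and 0 to 30 member transcripts, against 2, beside 1312 to 4597 of all transcripts. The members' median log2 fold change of -0.11 moved to 0.0888 with log2(TPM + 1), to 0.0749 unfiltered and to 0.0898 with log2(TPM + 0.1), where the median of all genes moved to 0.14, 0.08 and 0.21. With library size alone the medians were 0.03 for members and 0.17 for all genes, and without 1 library the members' median ran from -0.28 to -0.01. Without the first irradiated library Psma1, Psma2, Psma7, Psmb2, Psmb5, Psmc6, Psmd4, Psmd10, Psme3, Psmg3, Psmg4, Adrm1, Uba6, Anapc2, Fzr1 and Cdc27 each had an adjusted p under 0.05 in edgeR, as had Psmd3 without the second, and the cause was not tested. The groups share replicate numbers, and no source used here says whether libraries with the same number came from one experiment. Their deviations correlated at 0.06 over 12569 genes, which does not settle it, and no pairing was assumed. The fit with a replicate block called 0 members, with a median of -0.12, and placed 0 member genes and 0 member transcripts under an unadjusted 0.05. Removing the trend with transcript length, chosen after seeing the data, gave a median of -0.11, and leaving out Psmc3ip and Psme3ip1, also chosen then, gave -0.13. With 2 libraries per group, the standard errors of single members ran from 0.126 to 0.335, so small differences were not detectable.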
